A study of Rattus norvegicus with 24 samples.

Results

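The paraventricular nucleus of the hypothalamus (PVN) was compared between rats that had hepatectomy with electroacupuncture (EA) and normal control rats (NC). The libraries were chosen by their labels, 3 of each group, and make 6 of the 24 mRNA libraries of the series. All animals were male Sprague-Dawley rats, 7 weeks old when bought. EA rats lost part of the left liver lobe under isoflurane, and current was passed through needles on one side at Zusanli (ST 36) and Sanyinjiao (SP 6), a day before surgery and again right after it, while they were awake in a restraint device. NC rats were held in the device for as long and had neither needles nor surgery. Rats of all groups had been accustomed to the device. Anesthesia, operation and stimulation therefore cannot be told apart in this comparison. Operated rats without needles (HT), operated rats with needles but no current (SEA), 3 libraries each, and the central amygdala (CEA) are used only where a test below names them. By the methods, tissue was dissected with an atlas a day after the last stimulation, and brain samples came from different animals of a batch. The labels do not tie libraries to animals, so the p-values measure the spread between these libraries.

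The PVN is where the neuroendocrine response to stress starts. Its small neurons release corticotropin-releasing hormone, which drives the pituitary to secrete ACTH and the adrenal cortex to secrete glucocorticoids, and glucocorticoids then act back on the PVN through receptors that are themselves transcription factors. Larger neurons of the same nucleus make vasopressin and oxytocin, and others make thyrotropin-releasing hormone and somatostatin.

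The label was checked against markers. Sim1 and Otp, transcription factors that specify PVN neurons, stood at 9.85 to 16.7 and 26.2 to 30.1 CPM (counts scaled to a common library total) in the 6 PVN libraries, against 0.12 to 0.955 and 0.267 to 1.13 CPM in the EA and NC libraries of the CEA. Oxt reached 480 to 788 CPM and Avp 260 to 380 CPM in the PVN, and at most 77.9 and 46.9 CPM in the CEA. Crh was low, at 8.01 to 12.6 CPM, yet above its CEA range of 0.723 to 2.81 CPM. Of 16 PVN neuropeptides and 5 transcription factors, 10 and 3 had every PVN library above every CEA library. These 5 ranges use CPM scaled over all 24 libraries, and the values that follow use CPM scaled over the 6 libraries unless stated.

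The 6 libraries held 14796811 to 18226679 counts. Over the 16793 genes tested, 2 passed an adjusted p of 0.05 in EA against NC (edgeR quasi-likelihood test, Benjamini-Hochberg; 0.0119%), both higher in EA. The unadjusted p was under 0.05 for 1700 genes (10.1%), of which 791 were higher (4.71%) and 909 lower (5.41%), where 840 would be called if no gene differed. The 3 EA values lay all above or all below the 3 NC values for 15.4% of genes (7.52% higher, 7.91% lower). With upper-quartile factors in place of TMM the unadjusted count split into 556 higher and 1299 lower.

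NC replicate 2 stood apart from its own group. Across genes, its log2 CPM correlated with the EA libraries at 0.982 to 0.986 and with NC replicates 1 and 3 at 0.963 and 0.972 (genes are not independent replicates). On the first principal component, with 47.7% of the variance, NC replicates 1 and 3 lay at 51.7 and 36.2, NC replicate 2 at -21.3 and the EA libraries between -26.9 and -13.7. Its weight was 0.306 when limma estimated sample weights, the lowest of the 6. The count of genes at an adjusted p under 0.05 became 3239 without NC replicate 2 (19.0%; 2182 higher, 1057 lower) and was 1 to 4 without any other library. Without NC replicate 2 the unadjusted p was under 0.05 for 34.0% of genes, 19.6% higher and 14.5% lower, which is the background for counts without it. With 1 of the other libraries left out fewer genes met that threshold. The shares higher were 2.75%, 1.78% and 1.41% without EA replicates 1, 2 and 3, and 1.63% and 1.22% without NC replicates 1 and 3. The shares lower were 4.0%, 3.40% and 2.55%, and 3.94% and 3.07%. Counts for gene lists are therefore also given without it.

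**Figure D1:**
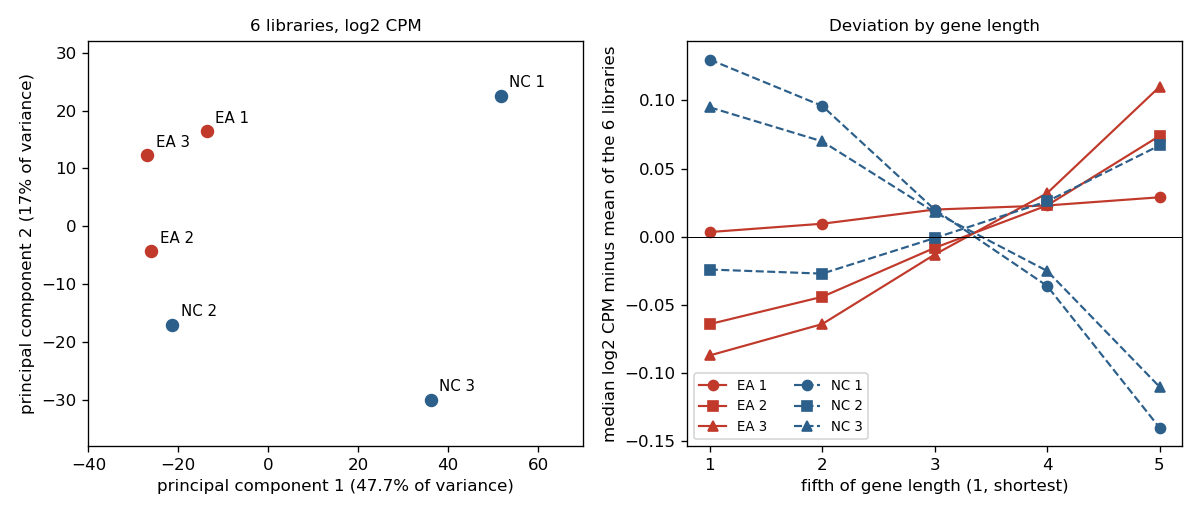
Left, the 6 PVN libraries on the first 2 principal components of log2 CPM, each point a library with its group and replicate; right, for each library, the median over genes of log2 CPM minus the mean of the 6 libraries, over 5 bins of gene length with equal numbers of genes. NC replicate 2 lies with the EA libraries at -21.3 on the first component, and its line in the right panel rises with gene length as those of the 3 EA libraries do, while NC replicates 1 and 3 fall from 0.13 and 0.095 in the shortest genes to -0.14 and -0.11 in the longest.

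The split between libraries followed gene length. Median log2 fold changes of EA against NC, over 5 bins from the shortest to the longest genes, were -0.13, -0.084, -0.023, 0.036 and 0.12. NC replicates 1 and 3 carried more counts in short genes and fewer in long ones, and NC replicate 2 did not. Mitochondrial genes took 8.77% and 8.62% of counts in NC replicates 1 and 3, 7.58% in NC replicate 2 and 7.54% to 7.68% in EA. The part of these differences in the results was tested only by an offset for each library's trend with length, under which the 5 medians became -0.029, -0.022, -0.021, -0.013 and -0.008, and 2 genes passed the adjusted threshold and 1586 the unadjusted one (705 higher, 881 lower; 4.2% and 5.25%). A set of 340 genes (2.02%) stayed at an unadjusted p under 0.05 with 1 sign in all 7 of these alternatives, the 6 left-out libraries and the length offset, and 99 of them were higher (0.590%) and 241 lower (1.44%). These genes are called stable below, as a description.

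**Figure D2:**
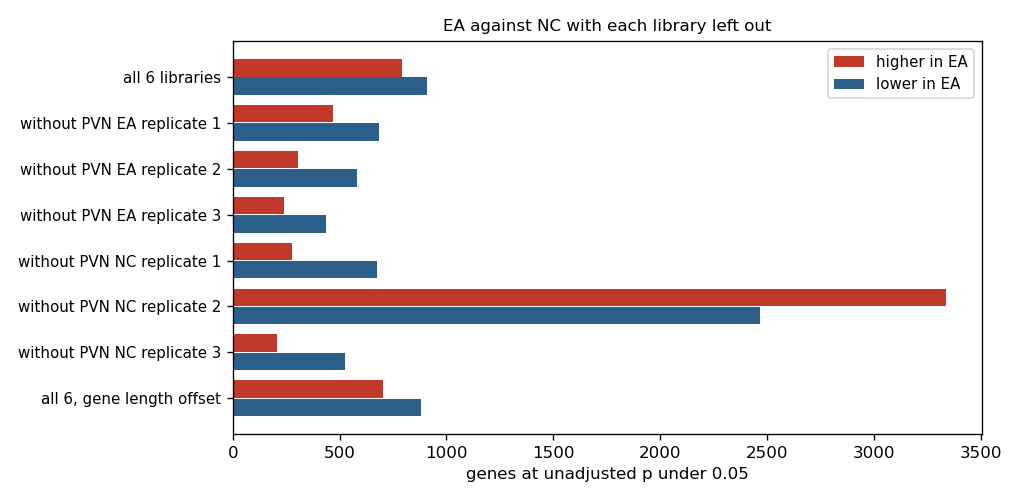
Number of genes at an unadjusted p under 0.05 (edgeR) that were higher or lower in EA than in NC, with all 6 libraries, with each library left out, and with all 6 and an offset for gene length. The bars are longest without NC replicate 2, at 3337 higher and 2467 lower, against 791 and 909 with all libraries.

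The 2 genes that were higher in EA at the adjusted threshold were class I genes of the major histocompatibility complex, whose products present peptides to T cells. LOC103690108 (chromosome 20, 3791407 to 3794027, minus strand, in the table's own coordinates) had 37.9, 34.0 and 36.5 CPM in EA replicates 1 to 3, and 0, 0.174 and 0 CPM in the NC replicates. That is 1826 counts against 3, a ratio of 596 with a 95% counting interval of 204 to 2890 (exact Poisson), and an adjusted p of 0.0011 by edgeR. LOC100364500 (chromosome 20, 2704148 to 2707120, minus strand) had 5.88, 5.41 and 7.02 CPM in EA and 0.0658, 0.0581 and 0 CPM in NC. Its 310 against 2 counts give a ratio of 152 (41.6 to 1260), with an adjusted p of 0.00514. Both genes were thus present in every EA library and at or under the floor of 3 counts in every NC library, and the intervals cover counting error only.

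The other operated rats differed among themselves at these 2 genes. On CPM scaled over the 12 PVN libraries, LOC103690108 was at 36.6, 43.0 and 76.7 in the HT replicates, and at 0, 0.068 and 72.2 in the SEA replicates. LOC100364500 took 7.24, 6.60 and 15.3 CPM in HT and 0.0628, 0.136 and 14.3 in SEA. SEA replicate 3 alone of that group held both. In the CEA, on CPM scaled over its 12 libraries, LOC103690108 was at 25.0, 19.1 and 26.2 CPM in EA and at 0 in all 3 NC libraries (adjusted p = 0.00461 by edgeR). LOC100364500 was at 2.28, 2.60 and 3.60 CPM in EA and 0.0562, 0.171 and 0.0634 in NC there, and did not pass (adjusted p = 0.0806 by edgeR). In a fit of all 12 PVN libraries, where SEA replicates enter the estimate of the spread, both adjusted p-values were 0.201. LOC100364500 also had an adjusted p of 0.0573 without EA replicate 1.

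Other histocompatibility genes went in both directions. The table held 40 such genes, 30 of them with at least 10 counts in 1 of the 6 libraries, and 25 were tested. At an unadjusted p under 0.05, 3 were higher and 2 lower, beside 4.71% and 5.41% of all genes. Without NC replicate 2 the counts were 6 and 5, beside 19.6% and 14.5%. RT1-CE10 was the third, with 2.09, 3.26 and 1.85 CPM in EA against 0.79, 0.0581 and 0.348 in NC (log2 fold change 2.61, p of 0.00355, adjusted p = 0.461 by edgeR). RT1-S3 was at 29.9, 26.1 and 13.6 CPM in EA and at 46.5, 37.4 and 45.4 in NC (-0.89, p of 0.0111), and RT1-T24-4 at 8.64, 11.6 and 2.98 against 18.6, 14.0 and 21.4 (-1.22, p of 0.0234). Neither pair of groups overlapped. RT1-T24-3 was lower by its mean but overlapped (-0.68, p of 0.0888). Genes of this family are near-identical copies that differ between haplotypes, so reads can be split among them and each count is uncertain. Genes that serve antigen presentation and the interferon response gave 0 higher and 3 lower of 22 tested, beside the same 4.71% and 5.41%, and 2 lower without NC replicate 2 and 7 without NC replicate 3, where 14.5% and 3.07% of all genes were lower. The 3 were Psmb9, a subunit of the immunoproteasome, at -0.69 (p of 0.0109), Bst2, an antiviral membrane protein, at -0.78 (p of 0.014) and Irf9, a mediator of interferon signals, at -0.35 (p of 0.0339).

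**Figure D3:**
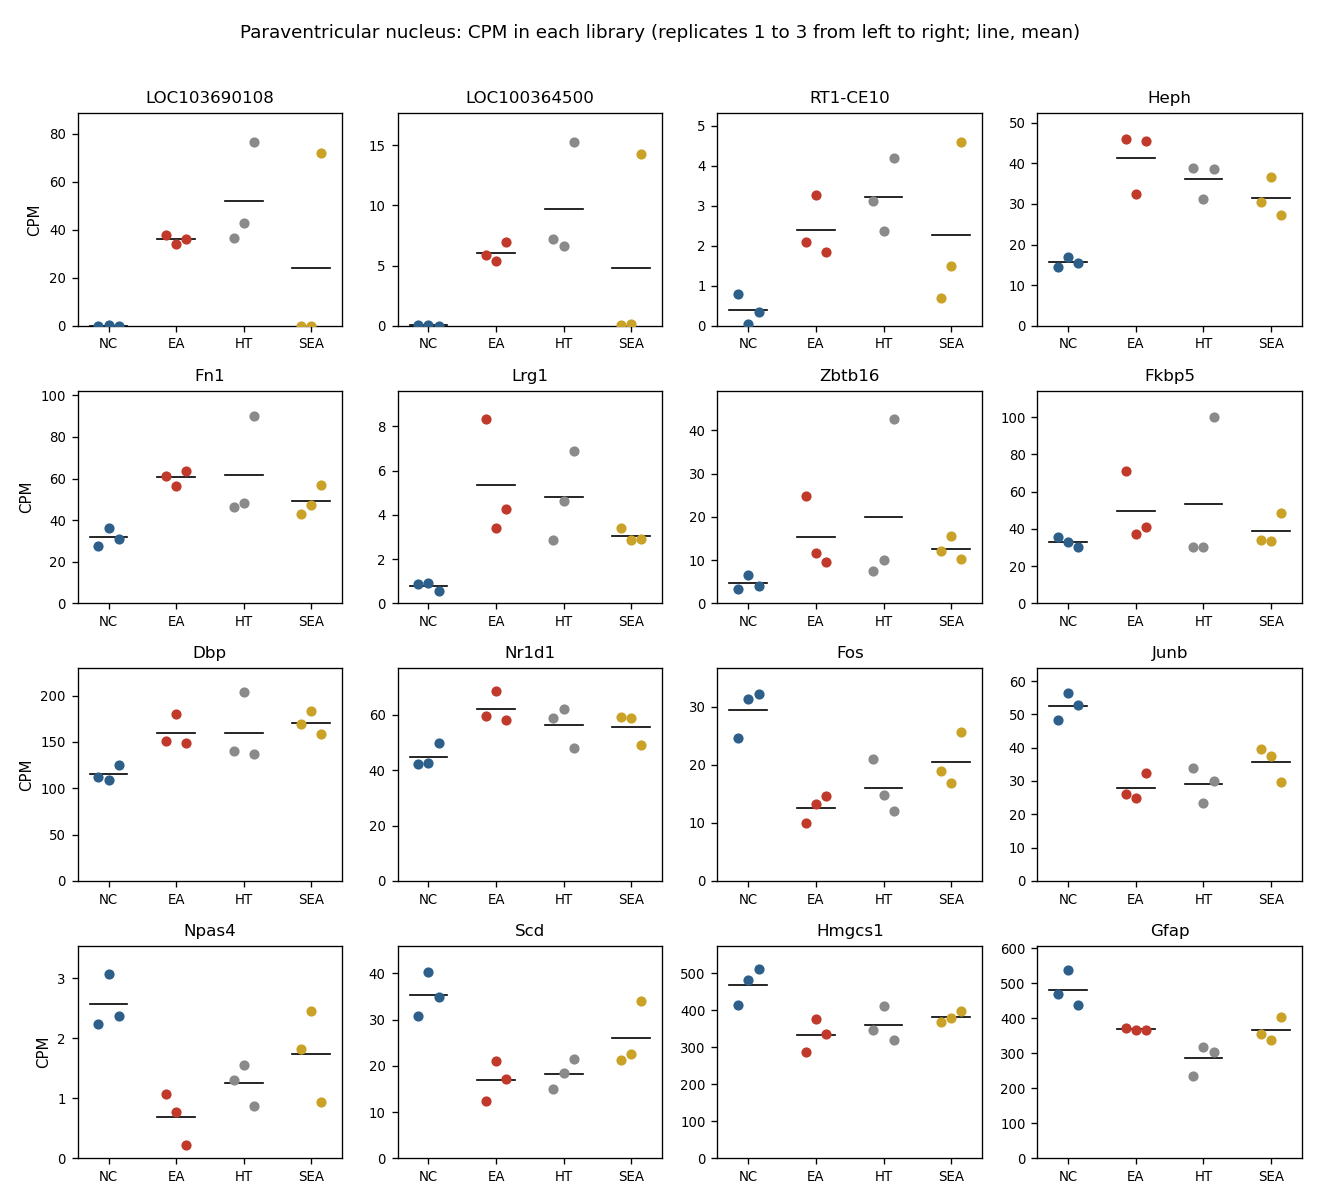
CPM (scaled over the 12 PVN libraries) of 16 named genes in the 12 PVN libraries, 1 panel per gene with its own linear axis from 0; points are replicates 1 to 3 from left to right within NC, EA, HT and SEA, and the line is the group mean. LOC103690108 and LOC100364500 are near 0 in NC and in SEA replicates 1 and 2, Heph and Lrg1 have all 3 EA values above all 3 NC values, and Fos and Junb have all EA values below all NC values.

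Outside this family no gene passed the adjusted threshold by edgeR with all 6 libraries. Other tools called more genes on the same libraries, 57 with DESeq2 (15 higher, 42 lower) and 1575 with limma voom and sample weights (1189 higher, 386 lower). For genes named from here on, a p is therefore the unadjusted p by edgeR, the adjusted p of that fit is 0.138 or more, and the first value in brackets is the log2 fold change. Heph, which encodes hephaestin, a copper-dependent oxidase that hands iron to its carrier, had the smallest p-value of the named genes outside it. It stood at 46.1, 32.4 and 45.8 CPM in EA and 14.4, 17.0 and 15.6 in NC, 41.4 ± 7.85 against 15.7 ± 1.28 (SD, n = 3). The EA values were all above the NC values, by 1.40 on the log2 scale (SE 0.16, p of 3.29e-05, adjusted p = 0.138), and it passed the adjusted threshold in 6 of 16 alternatives. Fn1, fibronectin of the extracellular matrix, was at 61.5, 56.7 and 64.1 CPM in EA and 27.7, 36.4 and 31.0 in NC (0.94, SE 0.12, p of 7.15e-05, adjusted p = 0.2). Lrg1, a secreted glycoprotein of the acute phase, was at 8.37, 3.42 and 4.27 CPM against 0.856, 0.929 and 0.58 (2.75, SE 0.42, p of 0.000222, adjusted p = 0.31). In all 3 genes the groups were separate, and NC replicate 2 was the highest NC library of each.

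Further genes with EA above NC in every library were Rrn3, an initiation factor of RNA polymerase I, and Selenop, the plasma carrier of selenium. Rrn3 was at 31.6, 33.1 and 37.4 CPM in EA against 19.8, 22.4 and 17.5 in NC (0.78, p of 0.00038), and Selenop at 257, 211 and 250 against 144, 182 and 169 (0.54, p of 0.00219). For both genes NC replicate 2 was the highest of the NC libraries. Tinagl1, a matrix glycoprotein, differed by 0.70 (p of 0.00267), Abcc9, a subunit of potassium channels in vessels, by 0.65 (p of 0.00307), Chm, a factor for prenylation of Rab proteins, by 0.57 (p of 0.00176), and Myt1, a transcription factor of neural precursors, by 0.38 (p of 0.0033). All 6 genes of this paragraph were among the stable ones.

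On the lower side, small p-values above 5 CPM belonged to Rpl21, C1qtnf5, Junb, Fos and Pmepa1. Rpl21, a protein of the large ribosomal subunit, had 69.8, 59.1 and 55.6 CPM in EA and 141, 113 and 120 in NC (-1.02, SE 0.12, p of 4.83e-05, adjusted p = 0.162). C1qtnf5, a secreted protein with a C1q domain, was at 28.9, 30.9 and 30.8 CPM against 47.6, 46.1 and 44.8 (-0.61, p of 0.00012), with little spread within either group. Pmepa1, an inhibitor of TGF-beta signals, was at 25.5, 28.2 and 26.9 against 41.5, 42.2 and 39.1 (-0.61, p of 0.000204). Rlbp1, a retinoid carrier, differed by -0.44 (p of 0.000757). Abl1, a tyrosine kinase, and Cttn, an actin-binding protein, had larger and more variable differences, with 1.01, 2.15 and 1.74 CPM in EA against 4.74, 10.5 and 11.1 in NC for Abl1 (-2.41, p of 0.000424) and 3.92, 13.7 and 13 against 50.5, 47.3 and 37.8 for Cttn (-2.14, p of 0.000831). Ribosomal protein genes have many processed copies, and counts for Rpl21 are uncertain for that reason.

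Immediate early genes are switched on within minutes of neuronal activity, and those that met the unadjusted threshold were lower in EA. Of 16 tested, 7 were lower and 0 higher at an unadjusted p under 0.05, beside 5.41% and 4.71% of all genes, and their median log2 fold change was -0.38 against -0.0021 over all genes. Fos, a subunit of the AP-1 factor and a standard marker of recent activity, had 10.1, 13.3 and 14.7 CPM in EA and 24.6, 31.5 and 32.3 in NC, a difference of -1.21 (SE 0.18, p of 0.000168, adjusted p = 0.31). Junb, a partner of Fos, was at 26.2, 24.9 and 32.6 CPM against 48.2, 56.5 and 52.8 (-0.91, SE 0.13, p of 0.000129, adjusted p = 0.271). Npas4, a factor induced by calcium entry, was low throughout, at 1.08, 0.773 and 0.225 CPM against 2.24, 3.08 and 2.38 (-1.90, p of 0.00445). None of these 3 genes overlapped between groups, and NC replicate 2 was the highest or the middle NC library for each.

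Fosb, Egr4 and Arc were also lower, at -0.86 (p of 0.0389), -0.76 (p of 0.0168) and -0.60 (p of 0.0152). EA replicate 1 was the lowest EA library for Fos, Fosb and Arc. The lower count was 4 without NC replicate 3, where 3.07% of all genes were lower, to 10 without EA replicate 3, where 2.55% were. It was 6 without NC replicate 2, beside 14.5%, and 8 with the length offset, beside 5.25%. Of the 16 tested, 5 had every EA value below the NC values, beside 7.91% of all genes. Fosb was among the 7 lower genes and overlapped. Without EA replicate 3 the median was -0.73.

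The start region of Junb is shown because it belongs to the gene of this list with the smallest p-value. It is the window from 250 bases before to 50 after the start (RefSeq, GRCr8, chr19:40080876-40081175, plus strand), with the letters TATAAA in capitals.
Junb: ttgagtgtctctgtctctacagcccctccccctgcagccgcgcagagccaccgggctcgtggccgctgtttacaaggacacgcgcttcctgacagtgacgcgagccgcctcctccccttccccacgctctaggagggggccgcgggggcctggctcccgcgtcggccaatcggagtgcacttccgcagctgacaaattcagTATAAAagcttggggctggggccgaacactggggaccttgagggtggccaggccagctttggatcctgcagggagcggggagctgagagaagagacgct
Of 33469 such windows, 14.2% hold TATAAA or its reverse complement. The letters TGACGTCA, the palindromic site of cyclic AMP response factors, were in 2 of the 11 list genes that the table holds (Btg2 and Ier2) and in 1.83% of all windows.

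**Figure D4:**
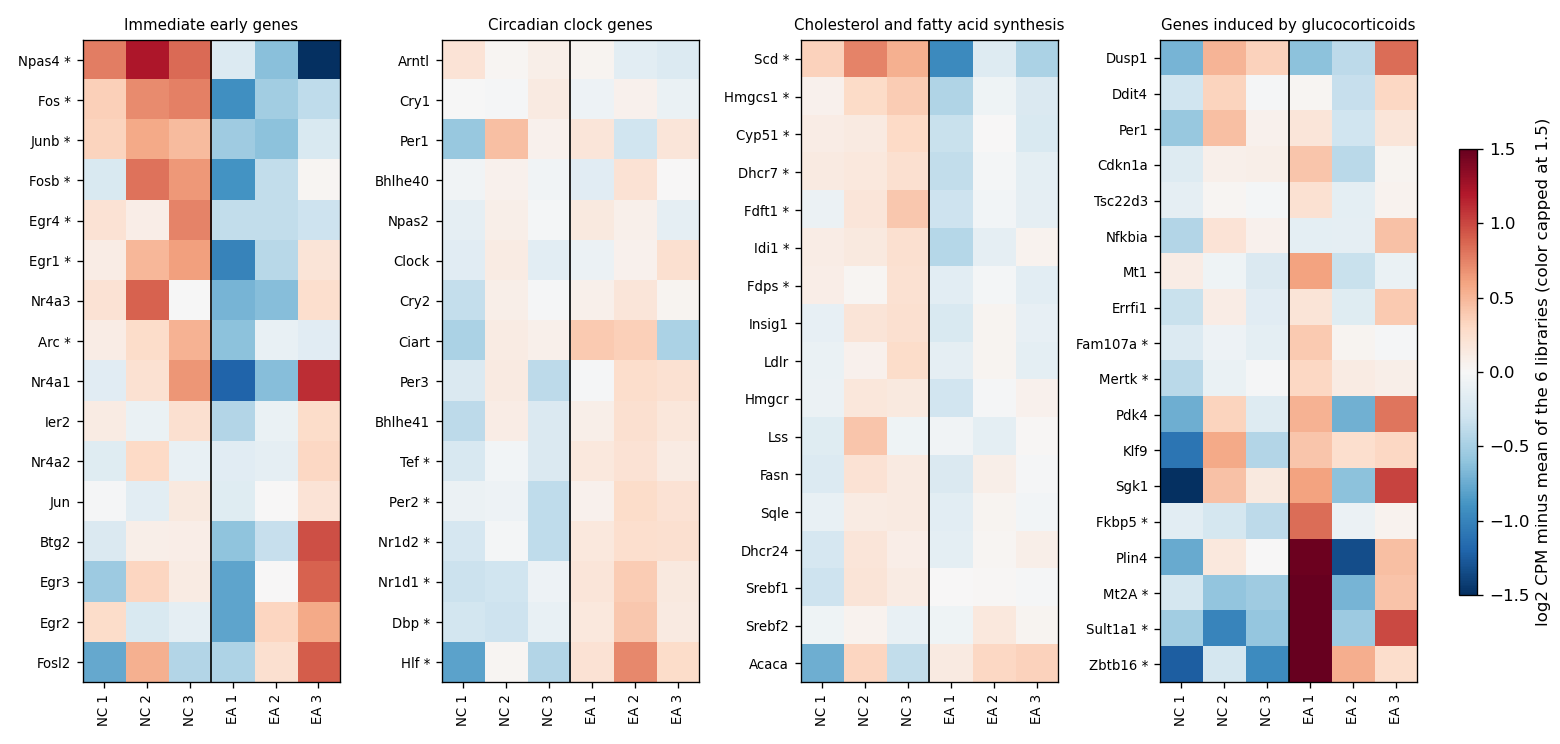
Log2 CPM minus the mean of the 6 libraries for the tested members of 4 gene lists, ordered by log2 fold change, in NC replicates 1 to 3 (left of the line) and EA replicates 1 to 3; a star marks an unadjusted p under 0.05 by edgeR. In the immediate early panel Npas4, Fos and Junb are above the mean in the 3 NC libraries and below it in the 3 EA libraries, and in the clock panel Dbp, Nr1d1 and Tef show the reverse.

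Genes of the circadian clock that met this threshold were higher in EA. The clock is a loop in which CLOCK and its partner switch on their own repressors, together with output factors. Of 16 genes tested, 6 were higher and 0 lower at an unadjusted p under 0.05, beside 4.71% and 5.41% of all genes, with a median log2 fold change of 0.25. Of the 16 tested, 6 had every EA value above the NC values, beside 7.52% of all genes, and these were the same 6. Dbp, an output factor that binds D-box sites, had 152, 180 and 149 CPM in EA and 112, 109 and 125 in NC (0.48, SE 0.10, p of 0.00204, adjusted p = 0.461). Nr1d1, the nuclear receptor REV-ERB alpha that represses the activating arm, was at 59.8, 68.7 and 58.4 CPM against 42.3, 42.8 and 49.9 (0.47, p of 0.00292), and its relative Nr1d2 at 123, 132 and 130 against 92.5, 108 and 84.8 (0.43, p of 0.00373).

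The other members at this threshold were Hlf at 0.79 (p of 0.013), Per2 at 0.36 (p of 0.0156) and Tef at 0.33 (p of 0.00457); Hlf and Tef are PAR bZIP factors like Dbp, and Per2 is a repressor of the loop. Arntl, the partner of CLOCK, was on the other side at -0.22 (p of 0.0813). The count was 4 to 6 without any 1 library other than NC replicate 2, beside 1.22% to 2.75% of all genes, 10 without that library, beside 19.6%, and 6 with the length offset, beside 4.2%. Of these genes Dbp, Nr1d1, Nr1d2 and Tef were stable. By the methods all brains were taken at the same time, no hour is given per animal, and time of day was not tested.

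E-box sites with the letters CACGTG are where CLOCK and its partner bind. Of the 13 clock genes with an entry among the RefSeq start windows, 5 hold these letters in at least 1 window (Nr1d1, Tef, Bhlhe40, Bhlhe41 and Ciart). The share was 6.42% of all windows counted singly, which is not the same measure. Bhlhe40, Bhlhe41 and Ciart did not pass the unadjusted threshold. The windows of Nr1d1 and Tef are printed to show the match, in capitals (GRCr8, chr10:84229405-84229704, minus strand, the one of 2 Nr1d1 entries with a match, and chr7:115206577-115206876, plus strand).
Nr1d1: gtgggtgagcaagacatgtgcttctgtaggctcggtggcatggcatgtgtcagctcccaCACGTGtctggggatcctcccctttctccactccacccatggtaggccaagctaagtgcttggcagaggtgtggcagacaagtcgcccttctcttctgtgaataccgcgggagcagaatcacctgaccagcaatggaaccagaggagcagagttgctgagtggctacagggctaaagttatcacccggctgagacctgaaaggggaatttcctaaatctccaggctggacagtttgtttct
Tef: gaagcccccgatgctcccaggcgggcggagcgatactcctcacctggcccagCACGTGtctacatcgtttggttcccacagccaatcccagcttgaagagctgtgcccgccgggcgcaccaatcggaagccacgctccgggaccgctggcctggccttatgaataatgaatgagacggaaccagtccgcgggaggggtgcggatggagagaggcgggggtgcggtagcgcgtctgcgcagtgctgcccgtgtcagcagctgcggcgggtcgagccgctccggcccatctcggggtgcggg
The windows of Dbp and Nr1d2 held no CACGTG, which says only that these letters are not in them.

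Genes of cholesterol and fatty acid synthesis that met it were lower in EA. This pathway runs from acetyl-CoA to cholesterol and its genes are controlled by SREBP factors. Of 17 tested, 7 were lower and 0 higher, beside 5.41% and 4.71% of all genes, with a median of -0.17. Scd, the desaturase that makes monounsaturated fatty acids, had 12.4, 21.1 and 17.3 CPM in EA and 30.8, 40.5 and 35.0 in NC (-1.06, SE 0.20, p of 0.000908, adjusted p = 0.461). Hmgcs1, which makes HMG-CoA at the head of the pathway, was at 288, 378 and 339 CPM against 414, 483 and 513 (-0.49, p of 0.00496). Cyp51, a demethylase of lanosterol, was at 186, 234 and 200 against 253, 257 and 289 (-0.37, p of 0.00979). EA replicate 1 was the lowest library for all 3 genes, and no EA value reached an NC value.

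Dhcr7, Fdft1, Idi1 and Fdps, further enzymes of the sterol pathway, were at -0.35 (p of 0.016), -0.34 (p of 0.0393), -0.32 (p of 0.0414) and -0.24 (p of 0.0232). Acaca, the carboxylase that commits acetyl-CoA to fatty acids, was at 0.46 (p of 0.0986). Named by p-value and outside the list were Tm7sf2, a sterol reductase, at 14.2, 15.2 and 14.7 CPM in EA and 21.6, 22.7 and 20.4 in NC (-0.55, p of 0.000983), and Acss2, an enzyme that makes acetyl-CoA from acetate, at 58.5, 68.8 and 63.6 against 87.8, 86.6 and 102 (-0.53, p of 0.00105). The lower count of the list was 7 without NC replicate 2, where 14.5% of all genes were lower, and 9 with the length offset, beside 5.25%, where the median was -0.28. Without any 1 other library it was 3 to 8, beside 2.55% to 4.0% of all genes, and it was 3 without EA replicate 1, beside 4.0%.

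The window of Hmgcs1 (GRCr8, chr2:53382054-53382353, plus strand) is shown as that of a pathway gene with NF-Y sites next to its start. The letters CCAAT, the site of NF-Y, are in capitals on whichever strand they lie, as is TATAAA.
Hmgcs1: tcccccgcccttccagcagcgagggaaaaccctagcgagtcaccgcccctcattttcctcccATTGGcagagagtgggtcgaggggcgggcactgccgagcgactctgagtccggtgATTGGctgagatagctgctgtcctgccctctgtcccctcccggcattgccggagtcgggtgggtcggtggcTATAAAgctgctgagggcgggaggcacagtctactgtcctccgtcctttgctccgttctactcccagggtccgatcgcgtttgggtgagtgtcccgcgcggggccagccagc
CCAAT was in at least 1 window of 7 of the 10 list genes with an entry, and in 37.5% of all windows counted singly.

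Genes that glucocorticoids induce gave 6 higher and 0 lower of 18 tested, beside 4.71% and 5.41% of all genes, with a median of 0.32. Their spread within EA was wide. Zbtb16, a zinc-finger repressor that glucocorticoids induce strongly, had 24.9, 11.7 and 9.60 CPM in EA and 3.29, 6.62 and 4.06 in NC (1.72, SE 0.42, p of 0.00385, adjusted p = 0.461). Fkbp5, a co-chaperone that lowers the affinity of the glucocorticoid receptor, was at 71.3, 37.4 and 41.3 CPM against 35.6, 33.2 and 30.4 (0.59, p of 0.0382). Sult1a1, a sulfotransferase, was at 39.4, 8.62 and 25.2 against 8.75, 6.27 and 8.41 (1.64, p of 0.0105), and its groups overlapped. Mertk, a receptor for the uptake of dying cells, differed by 0.34 (p of 0.033), Mt2A, a metallothionein, by 1.23 (p of 0.046) and Fam107a by 0.30 (p of 0.0392).

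EA replicate 1 was the highest library for all 6 of these genes. Without it 2 members were higher, beside 2.75% of all genes, and without NC replicate 1 also 2, beside 1.63%. Without EA replicate 2, the lowest of its group for Sult1a1 and Mt2A, 8 were higher, beside 1.78%. The count was 6 without NC replicate 2, where 19.6% of all genes were higher, and 3 with the length offset, beside 4.2%, and Zbtb16 and Sult1a1 were the stable ones. Among HT rats, replicate 3 was the high library for Fkbp5, at 100 CPM beside 30.1 and 30.2 (scaled over the 12 PVN libraries), and for Zbtb16, at 42.7 beside 7.37 and 9.97.

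Neuropeptides of the PVN lay mostly on the lower side by sign, and few met the unadjusted threshold. Of 16 tested, 2 were lower and 0 higher, beside 5.41% and 4.71% of all genes, and 15 had a negative log2 fold change, with a median of -0.15. Crh was at 10.7, 9.61 and 9.71 CPM in EA and 12.8, 8.54 and 13.1 in NC (-0.20, SE 0.19, p of 0.337, adjusted p = 0.631), so the groups overlapped. Avp had 358, 308 and 274 CPM against 290, 314 and 394 (-0.09, p of 0.559), and Oxt 675, 630 and 507 against 601, 587 and 817 (-0.15, p of 0.385). The direction of Avp and Oxt turned when NC replicate 3 was left out. Trh was at 107, 98.9 and 108 CPM in EA and 155, 106 and 135 in NC (-0.33, p of 0.0467), and Sst at 292, 314 and 274 against 481, 229 and 420 (-0.36, p of 0.178).

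NC replicate 2 was the lowest NC library for Crh, Trh, Sst and Oxt and lay within or below the EA range for all of these. Ghrh, growth hormone-releasing hormone, the other member at this threshold, was lower at 2.30, 3.92 and 1.85 CPM against 6.78, 4.88 and 5.92 (-1.12, p of 0.00754). Markers of other hypothalamic nuclei also had a negative median, -0.37, and which nucleus the Ghrh RNA came from was not tested. Without NC replicate 2, 6 of the neuropeptides were lower, beside 14.5% of all genes, and their median was -0.36. Their count was 1 without any other library, beside 2.55% to 4.0%, and 1 with the length offset, beside 5.25%. In bulk tissue, fewer cells of a type cannot be told apart from less RNA per cell. Receptors and enzymes that handle stress hormones gave 0 calls of 9 tested, and 1 higher and 2 lower without NC replicate 2. Crhr2, a CRH receptor, was at -0.37 (p of 0.166), Nr3c2, the mineralocorticoid receptor, at 0.54 (p of 0.147) and Hsd11b1, which regenerates active glucocorticoid, at 0.30 (p of 0.121).

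Markers of glia went in both directions. Gfap, the intermediate filament of astrocytes, was at 374, 368 and 369 CPM in EA and 470, 538 and 440 in NC (-0.38, SE 0.09, p of 0.00329, adjusted p = 0.461). Its EA values were close to each other and below every NC value. Slc1a3, the glutamate transporter of the same cells, was higher at 900, 898 and 902 CPM against 786, 838 and 715 (0.21, p of 0.0361), so the 2 astrocyte genes went in opposite directions. Of the 15 astrocyte markers 1 was higher and 1 lower, beside 4.71% and 5.41% of all genes, the background for each list of this paragraph, and 4 and 2 without NC replicate 2, beside 19.6% and 14.5%. Their summed level was 10200 to 10500 CPM in EA and 10100 to 10300 in NC. Of 13 microglia markers 1 was higher (2 without that library), C1qb at 0.40 (p of 0.0267), a complement subunit. The 15 oligodendrocyte and 10 vessel markers gave 0 calls, and without that library 0 and 3, the 3 being higher. Without NC replicate 1, 3 oligodendrocyte markers were lower, beside 3.94% of all genes. The acute phase list of 16 held Lrg1 on the higher and C3, a complement factor, on the lower side (-0.63, p of 0.0285), and gave 4 higher and 0 lower without it.

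Of 51 extracellular matrix genes 3 were higher and 4 lower, beside the background of 4.71% and 5.41%, 9 and 5 without NC replicate 2, beside 19.6% and 14.5%, and 1 and 5 without NC replicate 3, beside 1.22% and 3.07%. Fn1 led the first, and Col11a2 and Col5a3, chains of minor fibrillar collagens, the second. Col11a2 was at 94.7, 109 and 109 CPM in EA and 161, 138 and 143 in NC (-0.50, p of 0.00112). Col5a3 was at 33.5, 37.8 and 40.4 against 54.8, 46.6 and 50.8 (-0.44, p of 0.00379). Fn1 and these collagens thus lay on opposite sides, and all 3 were stable.

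Markers of neighboring regions were summed to show what else a dissection could hold. The 10 thalamus markers all had a positive log2 fold change, with a median of 0.40, and 1 was higher, beside 4.71% of all genes. Without NC replicate 2 the median was 0.58 and 6 were higher, where 19.6% of all genes were. Their summed level was 454 to 607 CPM in EA and 190 to 524 in NC. Synpo2 was at 24.4, 32 and 22.6 CPM against 5, 20.9 and 12.9 (1.02, p of 0.0474), with NC replicate 2 the highest in its group. Striatal markers ran at 326 to 365 CPM in EA and 327 to 341 in NC, and cortical and hippocampal markers at 137 to 162 and 97.6 to 153. Markers of other hypothalamic nuclei had 258 to 330 CPM in EA and 281 to 474 in NC, and 1 of 8 was lower, beside 5.41% of all genes. Without NC replicate 2 the counts were 1 higher and 1 lower of 10 striatal, 4 higher of 9 cortical and hippocampal, and 3 lower of 8 other hypothalamic markers, beside 19.6% of all genes higher and 14.5% lower. The part of these differences in the results for neuronal genes was not tested.

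Genes of the GABA system and the ion channel lists were higher by their medians, and their counts were largest without NC replicate 2. Of 18 genes of the GABA system, 5 were higher and 0 lower, beside 4.71% and 5.41% of all genes, with a median of 0.36. Gabra3, a receptor subunit, was at 59.8, 64.3 and 61.5 CPM in EA and 38.8, 56.3 and 43.9 in NC (0.42, p of 0.0186). Gabra4 and Gabra2 were at 0.55 (p of 0.0291) and 0.47 (p of 0.0289). The GABA count was 0 to 2 when any library other than NC replicate 2 was left out, beside 1.22% to 2.75% of all genes, and 10 without it, where 19.6% of all genes were higher, and both shares are the background for the next counts too. Potassium channels gave 7 higher and 1 lower of 78, with Kcnh1 at 0.50 (p of 0.0238), and 33 higher without NC replicate 2 against 1 to 3 without any other library, beside the same 1.22% to 2.75%. Sodium and calcium channels gave 3 higher of 18, with Scn3a at 0.49 (p of 0.0428). They gave 11 without NC replicate 2 and 0 to 2 without any other library. Genes of the presynaptic and postsynaptic machinery gave 0 of 15 and 2 of 20 on the higher side, 8 and 12 without NC replicate 2, and 0 and at most 2 without any other library. Pclo, a scaffold of the active zone, was at 130, 180 and 179 CPM against 78.1, 160 and 78.9 (0.62, p of 0.0658), and NC replicate 2 was within the EA range. Camk2g, a calcium-dependent kinase, was at 14.7, 22.5 and 21.8 against 6.32, 17.2 and 5.51 (1.02, p of 0.0457).

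Receptor genes of other lists also met the unadjusted threshold. Hrh3, the histamine receptor that inhibits transmitter release, was at 117, 113 and 107 CPM in EA and 80.5, 89.4 and 90.8 in NC (0.37, p of 0.00268). Oprk1, the kappa opioid receptor, was at 17.8, 15.6 and 16.7 CPM against 9.41, 13.3 and 7.95 (0.71, p of 0.0081). Both were stable, as was Nrg1, a ligand of ErbB receptors, at 0.63 (p of 0.0119). Htr1a, a serotonin receptor, was at 0.57 (p of 0.0293). Of 25 receptors and enzymes for amines and angiotensin 3 were higher and 0 lower, beside 4.71% and 5.41% of all genes. Without NC replicate 2 the counts were 8 and 1, beside 19.6% and 14.5%. When any other library was left out, 1 to 2 were higher, beside 1.22% to 2.75%. Drd2, a dopamine receptor, was at 13.9, 12.2 and 13.5 CPM against 11.7, 12.7 and 15.2 (-0.0027, p of 0.986), and Agtr2, an angiotensin receptor, was at 0.878, 0.884 and 1.35 against 0.526, 0.988 and 0.754 (0.45, p of 0.256). Oprm1, the mu opioid receptor, was at 8.51, 16.6 and 14.7 CPM in EA and 1.32, 13.1 and 3.31 in NC (1.16, SE 0.70, p of 0.139), and its adjusted p was 0.00711 without NC replicate 2. Oprl1, the nociceptin receptor, was at 0.46 (p of 0.0353). Of 8 opioid genes 2 were higher, beside 4.71% of all genes, and their median was -0.062. Without NC replicate 2, 3 were higher and 2 lower, beside 19.6% and 14.5%. When any other library was left out 1 was higher, beside 1.22% to 2.75%. On the lower side there were 2 without EA replicate 2, beside 3.40%, and 1 without NC replicate 1, beside 3.94%.

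Genes of the respiratory chain and the ribosome that met the unadjusted threshold were mostly lower. Of 77 nuclear genes of the respiratory chain 25 were lower and 0 higher, beside 5.41% and 4.71% of all genes, with a median of -0.24. For 21 of the 77 every EA value was below the NC values, beside 7.91% of all genes. Ndufv3 and Atp5me, subunits of complex I and of the ATP synthase, were at 91.7, 86.9 and 84.9 CPM against 123, 103 and 121 (-0.40, p of 0.00322) and at 74.5, 71.2 and 61.6 against 109, 85.0 and 102 (-0.51, p of 0.00322). NC replicate 2 was the lowest of the NC libraries for both. Ndufa1, a further subunit, had 0.675, 0.497 and 0.561 CPM in EA and 6.32, 8.07 and 1.97 in NC (-3.23, p of 0.000458). Of 84 ribosomal protein genes 11 were lower and 1 higher, beside the same shares of all genes, with a median of -0.18, and Rpl12 was at 132, 119 and 119 CPM against 210, 150 and 160 (-0.50, p of 0.00666). Without NC replicate 2 the lower counts were 60 and 52, beside 14.5% of all genes. They were 8 to 18 and 5 to 12 without any other single library, beside 2.55% to 4.0%, and 14 and 6 with the length offset, beside 5.25%. The median lengths of these lists were 647 and 652 bases, in the shortest of the 5 bins, and 8 respiratory chain genes were stable. Hspe1, a short gene for the mitochondrial chaperone HSP10, lay at -0.45 (p of 0.00412). Nrgn, a short neuronal gene for neurogranin, was at -0.40 (p of 0.0309), and Ntrk2, a long one for the BDNF receptor, at 0.33 (p of 0.0377).

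**Figure D5:**
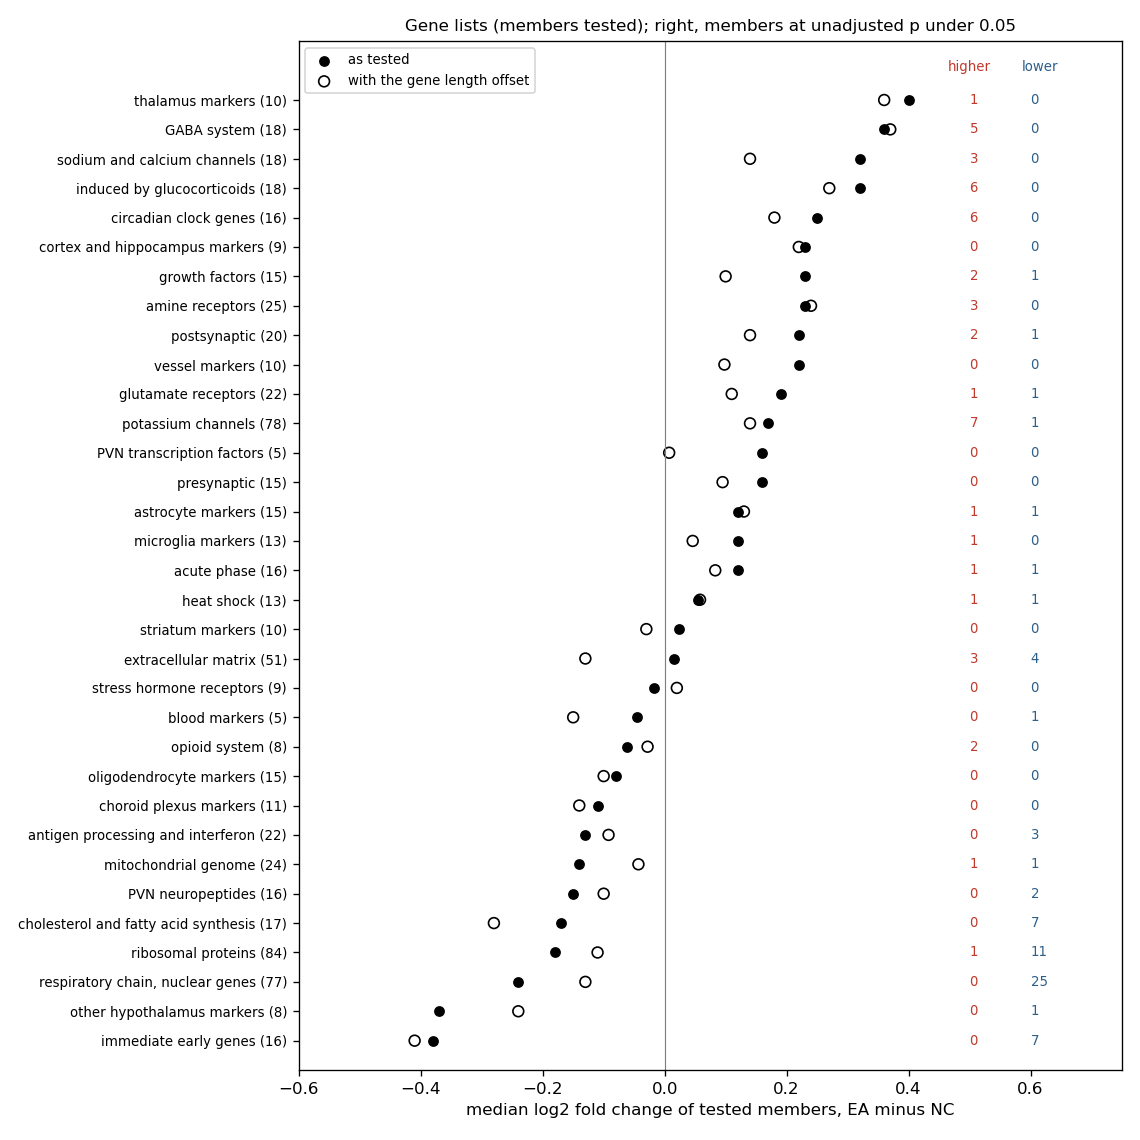
Median log2 fold change (EA minus NC) of the tested members of 33 gene lists, with their number in brackets; filled points, as tested with edgeR; open points, with the gene length offset; at the right, members at an unadjusted p under 0.05 that were higher or lower. Immediate early genes lie lowest at -0.38, and the respiratory chain moves from -0.24 to -0.13 and sodium and calcium channels from 0.32 to 0.14 with the offset.

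Whether EA differed from the other operated rats was tested directly. Across all genes, 16 of 16641 had an adjusted p under 0.05 in EA against HT by edgeR (0.0961%), all lower in EA, and 0 of 16606 in EA against SEA (0%), where 865 genes had an unadjusted p under 0.05 (5.21%). At the unadjusted threshold EA against HT gave 944 genes (5.67%; 2.10% higher, 3.57% lower), and EA against SEA 2.20% higher and 3.0% lower. Of the 129 named genes 0 passed the adjusted threshold in either test, and the smallest adjusted p-values were 0.0622 and 0.882. Many of the named genes were picked by their p-values in EA against NC, with the same EA libraries, so their values against HT and SEA are a description. Rpl21 was lower than in HT by its log2 fold change of -0.74 (p of 7.89e-05) and than in SEA by -0.53 (p of 0.00575). Abl1 was at -1.60 (p of 0.00212) and -2.36 (p of 0.000493), and Cttn at -1.47 (p of 0.00917) and -0.97 (p of 0.0403).

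Of 16 peptides of the PVN 5 had an unadjusted p under 0.05 in EA against HT, beside 5.67% of all genes, and their median was 0.19 over all 16. Those named here were higher in EA, with Crh at 0.57 (p of 0.0219), Avp at 0.46 (p of 0.012), Trh at 0.47 (p of 0.00844) and Sst at 0.52 (p of 0.000506). Crh was at 7.74, 7.81 and 4.51 CPM in HT, scaled over the 12 PVN libraries. HT replicate 3 was the lowest HT library for Avp, Trh and Sst as well. Gfap was also higher than in HT (0.36, p of 0.00598), and Hrh3 lower (-0.37, p of 0.00076). Fos was at -0.34 against HT (p of 0.149) and at -0.70 against SEA (p of 0.00359), and Junb at -0.07 (p of 0.635) and -0.36 (p of 0.024). Heph was at 0.19 (p of 0.236) and 0.39 (p of 0.0284), and Scd at -0.12 (p of 0.572) and -0.63 (p of 0.0184). Dbp was at -0.01 (p of 0.97) and -0.10 (p of 0.277).

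EA, HT and SEA were each set against the same NC libraries, so their values are only given side by side. For Heph the log2 fold changes against NC were 1.40 in EA, 1.21 in HT and 1.0 in SEA. They were 0.94, 0.96 and 0.63 for Fn1, 2.75, 2.60 and 1.94 for Lrg1, and -1.21, -0.88 and -0.52 for Fos. The list medians were -0.38, -0.50 and -0.23 for immediate early genes, 0.25, 0.31 and 0.29 for the clock, and -0.17, -0.05 and 0.01 for cholesterol and fatty acid synthesis.

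The difference between the regions in EA against NC was tested as an interaction over 12 libraries. Of 17432 genes 0 passed an adjusted p of 0.05 by edgeR (0%), and 1125 an unadjusted one (6.45%; the PVN change was above that of the CEA for 3.18% and below it for 3.28%). DESeq2 gave 0 and 1150. CEA EA replicate 2 stood apart, with 3.80% of its counts in mitochondrial genes against 10.1% to 14.4% in the other CEA libraries of all groups. Without it the region test gave 0 genes at the adjusted and 1520 at the unadjusted threshold. Leaving out NC replicate 2 of the PVN instead gave 792 genes at the adjusted threshold, and leaving out NC replicate 1 of the CEA gave 8. The test treated PVN and CEA libraries as independent, and rats shared between the regions were not modelled. In both regions SEA replicate 3 alone of its group held LOC103690108 above 1 CPM. In the CEA, Heph stood at 44.3, 37.6 and 31.6 CPM in EA and 18.15, 15.5 and 13.75 in NC, scaled over the 12 CEA libraries (1.27, p of 7.27e-05, adjusted p = 0.24), beside 1.40 in the PVN. Scd was at 9.69, 13.9 and 16.0 CPM against 28.2, 43.0 and 39.7 (-1.47, p of 0.000183), and Fos at 3.67, 7.03 and 6.82 against 10.2, 22.0 and 18.0 (-1.5, p of 0.00229). The groups did not overlap in the CEA for these 3 genes either. Dbp differed by 0.26 there (p of 0.145) and Nr1d1 by 0.15 (p of 0.425). Without CEA EA replicate 2 the CEA values were 1.26 for Heph (p of 0.000366), -1.52 for Scd (p of 0.001), -1.66 for Fos (p of 0.00501), 0.20 for Dbp (p of 0.296) and 0.32 for Nr1d1 (p of 0.0404), and LOC103690108 had an adjusted p of 0.0251 by edgeR. The median of the clock genes was 0.0085 in the CEA, and 1 of them had an unadjusted p under 0.05 for the difference between regions.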

How the data were processed

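mRNA of 3 PVN EA and 3 PVN NC libraries was compared. The deposited table holds raw counts of reads for each gene, which the authors made from strand-specific libraries; the submitters' processing notes name HISAT2 and featureCounts (versions not given in the sources used here). Counts were not normalized. The methods name mRatBN7.2, but gene ends in the table (up to 282724300 on chromosome 1) lie past that assembly, and the processing notes list human builds. Coordinates are given as the table has them, without a build, and RefSeq GRCr8 only for printed windows. How reads in several places were counted is not stated. The table held 35032 genes; 1 stray header line was dropped.

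Genes were filtered with filterByExpr, scaled by TMM and tested on the 6 libraries with the two-sided quasi-likelihood test of edgeR 4.0.16 in R 4.3.3, with Benjamini-Hochberg adjustment. Log2 CPM used a prior count of 2. DESeq2 1.42.0 and limma 3.58.1 gave alternatives. A count was worth 0.0549 to 0.0676 CPM, and the floor behind a count of 0 is 3 counts (0.165 to 0.203 CPM); these limits and intervals cover counting error only, as reads carried no molecular identifiers. Gene lists were described by counts and medians. On simulated counts with 200 genes changed 4-fold, the test on 16588 genes recovered 91.5% with 18 false calls. With 200 changed 2-fold, on 16606 genes, it recovered 47.5% with 7. Each gene was drawn independently around its own mean, without shifts that many genes share, such as that of NC replicate 2. The simulation therefore cannot say what share of such changes was found in the data. There Lrg1 (log2 fold change 2.75, adjusted p = 0.31) and Abl1 (-2.41, adjusted p = 0.395) did not pass by edgeR.

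The genes and lists were chosen with earlier results of these data known. The text names genes past the adjusted threshold, up to 12 per direction by p-value with a named symbol, at least 5 CPM and no overlap, up to 3 per list, 6 histocompatibility genes by p-value, and a set of stress genes that includes Crh, Avp and Oxt. Other list members (Tef, Arc, Dhcr7 and the like) were named after their values were seen, to complete a count. The length offset, the list counts with libraries left out, the CEA fit without CEA EA replicate 2 and the stable set were added after seeing the data. Symbols repeated in the table were not named, and some genes that the rule selects are not reported here. No pair of libraries held identical values.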

Additional observations from a re-analysis of the deposited data

How the results depend on the processing

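The count of genes at an adjusted p under 0.05, 2 with all 6 libraries, was 5 without a filter on low counts, 57 with the DESeq2 Wald test, 1575 with limma voom and sample quality weights, and 1 in a single fit of the 12 PVN libraries. When 1 library was left out it ran from 1 to 3239, the highest without NC replicate 2. The unadjusted count of 1700 became 5064 with limma voom and 3419 in the fit of 12 libraries, and ran from 678 (without EA replicate 3) to 5804 (without NC replicate 2). The share of genes with no overlap ran from 21.4% to 50.5% with 1 library left out, where groups of 2 separate more easily by construction. The difference between regions ran from 0 to 792 genes, and leaving out CEA NC replicate 1 gave 8 and PVN NC replicate 2 gave 792. Deviations of EA and NC libraries with the same replicate number correlated at 0.18, 0.13 and -0.066, and those with different numbers at -0.2 to 0.077. With 3 libraries per group these values cannot decide whether the numbers pair the libraries. With the replicate number as a block, 2 genes passed the adjusted threshold and 2430 the unadjusted one (1597 higher, 833 lower), and the region difference gave 0. Drd2 reversed to 0.00 under the block and ran from -0.09 to 0.10 with 1 library left out (0.04 without EA replicate 2, 0.10 without NC replicate 3). Avp reversed to 0.03 with the length offset and ran from -0.19 to 0.04, and Oxt from -0.23 to 0.01, both highest without NC replicate 3. LOC100364500 had an adjusted p of 0.0573 without EA replicate 1, and both called genes 0.201 in the fit of 12 libraries. No other gene whose EA against NC fold change is given in brackets or text changed direction in the alternatives run. These were 16 per gene, and 15 for Agtr2. Depth limits genes near 1 CPM most, where a count is worth 0.0549 to 0.0676 CPM.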
